A study of Mus musculus with 2 samples.

Results

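Galectin-1, vimentin, 2 S100 proteins and 4 annexins are calcium-, sugar- or cytoskeleton-linked proteins whose transcripts are often described together in effector and memory T cells. Their 8 genes, Lgals1, Vim, S100a10, S100a11, Anxa1, Anxa2, Anxa5 and Anxa6, were compared here between CD5-positive gamma delta T cells of LAT3YF and wildtype mouse spleens. They were found by symbol among the probes that the platform annotation gives to 1 gene alone. All 8 had such a probe, and Anxa2 had 2, which makes 9 of the 8014 probes and 8 of the 4331 genes measured. The set was chosen by name, with earlier log ratios from these same 2 arrays known, in which several of these genes had been past 2-fold. Their ratios are therefore a description and carry no test.

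LAT is an adaptor that passes signals from the T cell receptor to enzymes inside the cell, and the LAT3YF allele carries tyrosine-to-phenylalanine replacements in it. The cells of both genotypes were isolated from spleen with anti-CD5 magnetic beads and a cell sorter, and their total RNA was hybridised to 2-colour expression arrays. The series holds 2 arrays of this pair, the + polarity array with LAT3YF in channel 2 and wildtype in channel 1, and the - polarity array with the populations exchanged. The age, sex and number of mice, and any pooling, are not given in the labels, and nothing states that the arrays came from separate mice or RNA extracts. The pair therefore counts as 1 replicate of the comparison. The exchange of populations between channels is read as a dye reversal, though the labels do not name the dyes. Each SD below is taken between the 2 dye-reversed arrays. It is read as technical error with any dye effect included, and gives no measure of the spread between mice.

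Each deposited value is a log ratio of the 2 channels. The sign of the - polarity array was turned so that both arrays run the same way, and a positive value below means more transcript in 1 of the populations. Which population that is, LAT3YF or wildtype, the labels do not settle, so every statement can be read with the populations exchanged. The values were read as log10. If they were log2, the 2.63-fold of Lgals1 would be 1.34-fold, and if they were natural logs it would be 1.52-fold. A gene is called when its mean reaches 2-fold (a log10 ratio of 0.301 or more in size) and both arrays give it the same sign, which is a rule and no test. A ratio shows no level, so the abundance of a transcript in either population, and whether it lay above background, could not be judged. In these bulk samples, fewer cells of a type and less RNA per cell cannot be told apart.

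Galectin-1 is a small secreted and cytosolic lectin that binds galactose-containing sugars on surface glycoproteins of T cells. Vimentin forms the intermediate filaments of lymphocytes, fibroblasts and macrophages. S100 proteins are small paired proteins, most of which bind calcium. Annexins are proteins that bind acidic phospholipids of membranes, most of them when calcium is present. The 2 families act together: S100A10 binds the tail of annexin A2, and S100A11 binds that of annexin A1.

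Promoters of members with ratios of the same sign are shown first, so that what their sequences share can be set beside the ratios. Vim and S100a11 are the called members with a promoter window among those used here, and Anxa1 and Anxa2 follow them in the order of the ratios. The windows hold the 250 bases before the gene's start (RefSeq, GRCm38.p6), printed 5′ to 3′ on the gene's strand. Capitals mark every match, on either strand, to 7 searched motifs: the GC box (GGGCGG), the TATA box (TATAAA), the CCAAT box (CCAAT), the AP-1 site (TGANTCA), the E-box (CANNTG), a GATA site (AGATAA) and the cyclic AMP response element (TGACGTCA).
Vim, chr2:13574061-13574310, plus strand: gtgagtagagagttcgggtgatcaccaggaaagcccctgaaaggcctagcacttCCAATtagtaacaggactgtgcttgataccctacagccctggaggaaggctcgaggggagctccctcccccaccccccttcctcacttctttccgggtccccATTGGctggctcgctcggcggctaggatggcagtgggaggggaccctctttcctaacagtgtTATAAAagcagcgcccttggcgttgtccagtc
S100a11, chr3:93520246-93520495, plus strand: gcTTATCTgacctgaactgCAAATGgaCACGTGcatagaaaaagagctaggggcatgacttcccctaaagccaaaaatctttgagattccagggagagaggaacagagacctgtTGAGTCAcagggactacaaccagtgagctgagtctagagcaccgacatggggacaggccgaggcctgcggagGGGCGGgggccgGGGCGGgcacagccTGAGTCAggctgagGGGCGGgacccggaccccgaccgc
Anxa1, chr19:20390672-20390921, minus strand: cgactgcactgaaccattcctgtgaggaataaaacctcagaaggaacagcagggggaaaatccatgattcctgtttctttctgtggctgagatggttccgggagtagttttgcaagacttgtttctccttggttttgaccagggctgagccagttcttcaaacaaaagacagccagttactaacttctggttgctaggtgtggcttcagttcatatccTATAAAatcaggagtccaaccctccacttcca
Anxa2, chr9:69453433-69453682, plus strand: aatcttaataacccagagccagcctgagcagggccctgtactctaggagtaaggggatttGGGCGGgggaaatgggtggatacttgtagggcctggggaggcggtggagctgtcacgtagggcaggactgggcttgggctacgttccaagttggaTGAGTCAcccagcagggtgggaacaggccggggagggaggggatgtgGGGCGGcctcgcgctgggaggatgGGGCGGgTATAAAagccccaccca

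A TATA box stood 32 bases before the start in Vim and also 32 bases before it in Anxa1, and 17 bases before it in Anxa2. It was found in 3 of the 5 member windows, counting that of Anxa5, which is not printed, and in 13.6% of 32851 windows of the same kind, each reaching 50 bases past the start. S100a11 and Anxa2 each held 3 GC boxes, a motif of 35.7% of all windows. S100a11 held AP-1 sites at 136 and 38 bases before its start and Anxa2 held 1 at 95 bases, whereas 7.81% of all windows hold this motif. Vim alone of the 5 held CCAAT boxes, 196 and 94 bases before its start, and 37.4% of all windows hold one. The far end of the S100a11 window held E-boxes, a motif of 72.3% of all windows, and the only GATA site of the 5 windows, a motif of 11.2% of all windows. No cyclic AMP response element was found in the 5 windows, and 1.79% of all windows hold one. These are matches of letters, and no binding was measured here. Vim and S100a11, which had nearly the same ratio, shared none of the 7 motifs in these windows. The windows were rich in G and C in Anxa2 (62.4%), S100a11 (60%) and Vim (58.4%) and less so in Anxa1 (46%), against a median of 52.4% over all windows. S100a10 and S100a11 are neighbours in the genome, with 1 gene that encodes no protein between them in the RefSeq table.

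All 8 members lay on the positive side on both arrays. Of them, 4 were called positive and 0 negative, namely Lgals1, Vim, S100a11 and S100a10, while the 4 annexins were not called. Over all 4331 genes, 3.72% were called positive, 5.03% negative and 8.75% in either direction. The same sign on both arrays, positive at any size, was found in 30.2% of all genes. Because the members were picked with these ratios known, nothing is read from the distance between those shares. The members' median log10 ratio was 0.266, against 0.0023 over all genes.

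**Figure D1:**
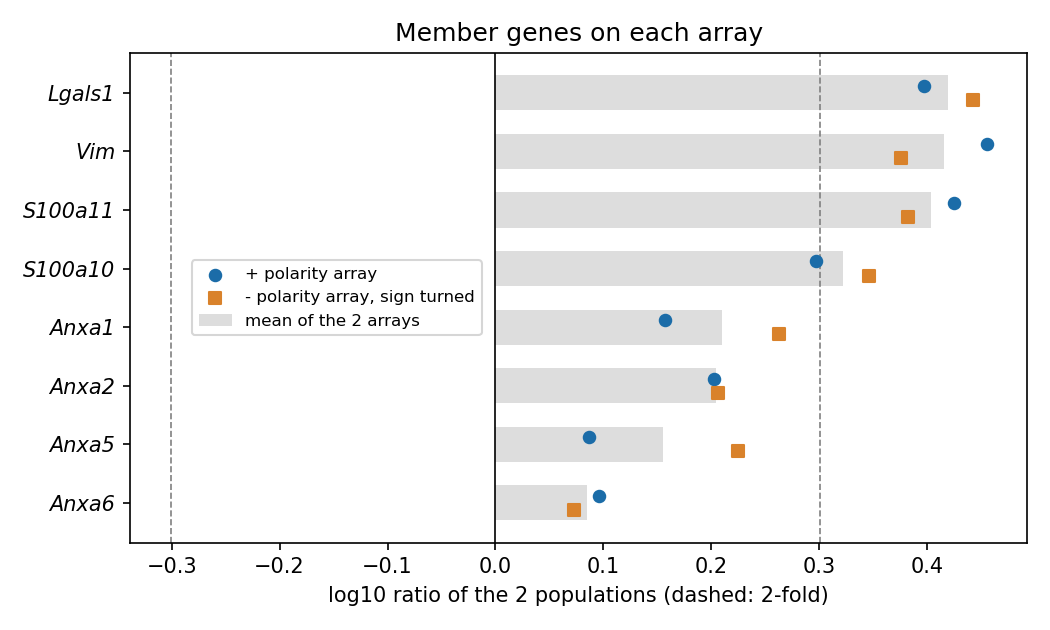
Log10 ratio of each member gene, with genes down the page from the highest mean to the lowest; circles are the + polarity array, squares the - polarity array after its sign was turned, grey bars the mean, and dashed lines mark 2-fold. All points lie right of 0; Lgals1, Vim and S100a11 are past the right dashed line on both arrays, S100a10 on the - polarity array only, and the annexins on neither.

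Lgals1 had log10 ratios of 0.397 (+ polarity array) and 0.442 (- polarity array). Both are past 2-fold, at 2.49-fold and 2.77-fold, and the arrays differed by 0.0453. Its mean of 0.419 ± 0.032 (2.63-fold) was the highest of the members and placed it 72nd of the 4331 genes.

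Vim had log10 ratios of 0.455 (+ polarity array) and 0.376 (- polarity array). Both are past 2-fold, and here the + polarity array gave the larger value, at 2.85-fold against 2.38-fold. The mean was 0.415 ± 0.056 (2.60-fold), 77th of all genes. The gap between Lgals1 and Vim, 0.0041, was smaller than the spread between the arrays, and their order was opposite on the 2 arrays.

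The S100 genes followed. S100a11 had log10 ratios of 0.425 (+ polarity array) and 0.382 (- polarity array), with a mean of 0.403 ± 0.030 (2.53-fold). It was past 2-fold on both arrays and did not differ from Vim beyond the spread between the arrays. S100a10, the partner of annexin A2, had log10 ratios of 0.297 (+ polarity array) and 0.346 (- polarity array), with a mean of 0.322 ± 0.035 (2.10-fold). On the + polarity array it was at 1.98-fold, just short of the threshold, so its call rested on the mean and the - polarity array. It lay below S100a11 by 0.0818, more than the spread between the arrays, and below it on both arrays.

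**Figure D2:**
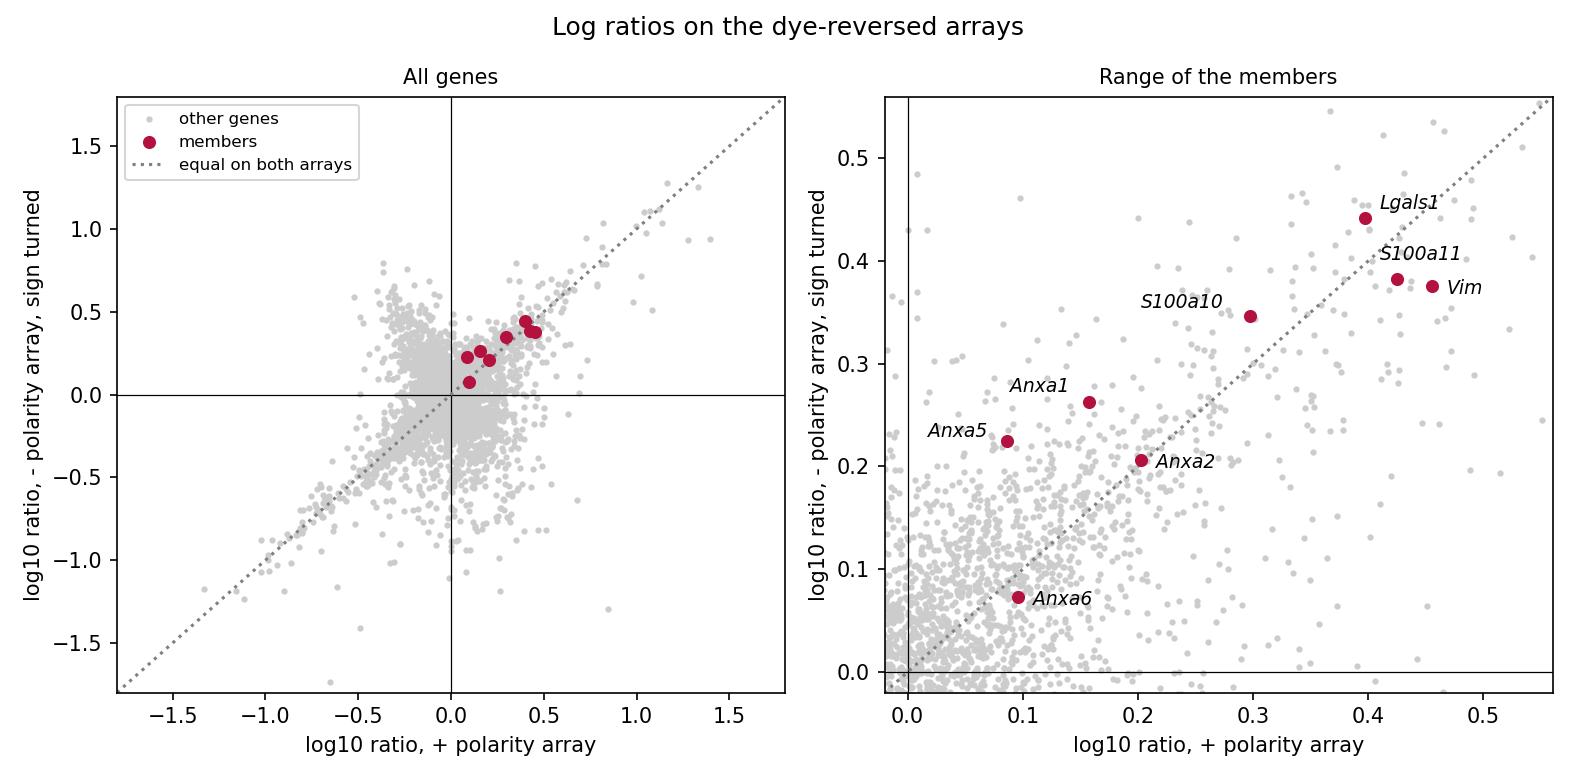
Log10 ratios of all genes (left) and of the range that holds the members (right), with the + polarity array on the horizontal axis and the - polarity array after turning on the vertical axis; grey points are other genes, red points the 8 members, and the dotted line marks equal values. The members lie near the line in the upper right, with Lgals1, S100a11 and Vim farthest from 0, and Anxa5, at 0.0862 and 0.225, off the line.

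Annexin genes lay on the same side with smaller ratios. Anxa1 encodes annexin A1, a mediator induced by glucocorticoids that acts on formyl peptide receptors. It had log10 ratios of 0.157 (+ polarity array) and 0.262 (- polarity array), with a mean of 0.210 ± 0.074 (1.62-fold). Neither array reached 2-fold. The step from S100a10 to Anxa1, 0.112, was larger than the spread between the arrays of either gene.

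Anxa2, whose protein joins S100A10 in a complex at the plasma membrane, was measured by 2 probes. One gave 0.163 (+ polarity array) and 0.147 (- polarity array), and the other gave 0.242 and 0.265 on the same arrays. The second probe was higher on both, at 1.79-fold on average against 1.43-fold. Their means differed by 0.0987, close to the median of 0.0878 for the 294 genes with more than 1 probe, 131 of which had a larger range. Averaged over the probes, Anxa2 had log10 ratios of 0.203 (+ polarity array) and 0.206 (- polarity array), and a mean of 0.204 ± 0.0026 (1.60-fold). Neither probe of Anxa2 reached the ratio of its partner S100a10 on either array.

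Anxa5 encodes the phosphatidylserine-binding protein used to stain dying cells. It had log10 ratios of 0.0862 (+ polarity array) and 0.225 (- polarity array), the largest gap between arrays among the members, and its mean was 0.156 ± 0.098 (1.43-fold). Anxa6, a large annexin with a doubled core that is common in lymphocytes, had log10 ratios of 0.0963 (+ polarity array) and 0.0730 (- polarity array). Its mean of 0.0846 ± 0.016 (1.22-fold) was the lowest of the members, and 992nd of all genes. From Anxa1 down to Anxa6, the gap between neighbours in the order was smaller than the larger SD of the pair, and each pair changed places on 1 array. Each of these gaps was larger than the smaller SD of its pair.

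At a threshold of 1.5-fold, 6 members were called positive, now with Anxa1 and Anxa2, where 8.43% of all genes were called positive. When each array had to pass 2-fold on its own, 3 members were called, Lgals1, Vim and S100a11, where 2.68% of all genes were called positive. No member reached 3-fold.

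The place of a member among all genes varied most between the arrays for Anxa5, Anxa6 and Anxa1. Lgals1 lay above 97.2% of all genes on the + polarity array and above 97.1% on the - polarity array, and S100a10 above 94.7% and 94.6%. Anxa5 lay above 73.8% of all genes on the + polarity array and above 88.3% on the - polarity array, and Anxa6 above 75.8% and 67.0%. The dye component is the part of a ratio that changes sign between the turned arrays. Its median size in the members was 0.0237 on the log10 scale, against 0.0410 over all genes. Because the members were picked with ratios from these arrays known, nothing is read from that difference. The largest, that of Anxa5, was -0.0693, and that of Anxa1 was -0.052, both larger in size than the median over all genes.

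**Figure D3:**
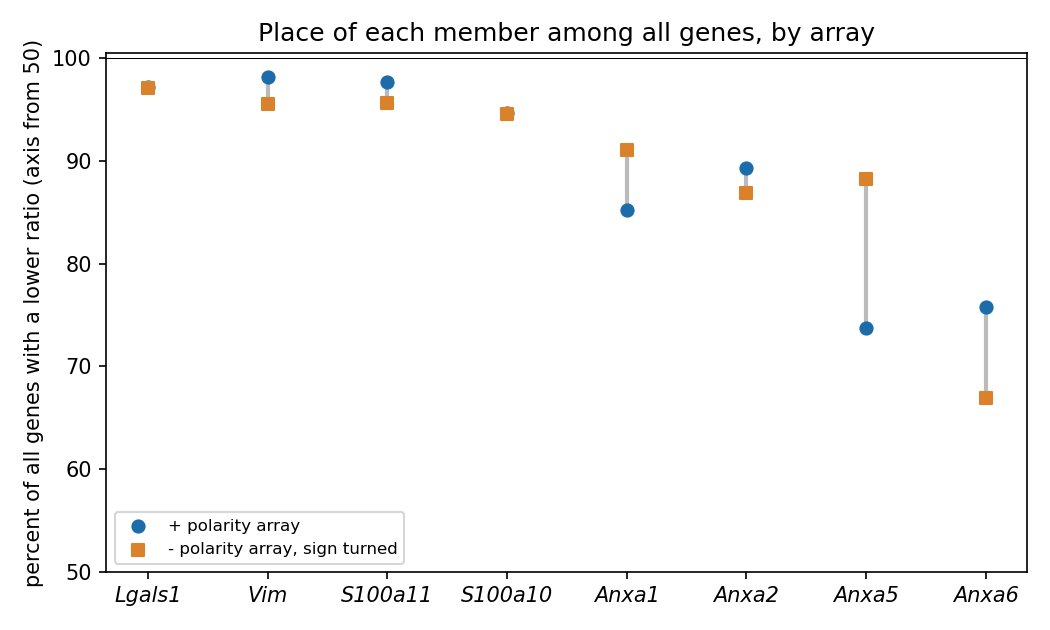
Percent of all 4331 genes with a lower log10 ratio than each member, on the + polarity array (circles) and the - polarity array after turning (squares), with genes from the highest mean at the left to the lowest at the right; the vertical axis starts at 50. The pairs of points nearly coincide for Lgals1 and S100a10 and lie farthest apart for Anxa5, at 73.8% and 88.3%.

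Relatives of the members were set beside them from lists written with earlier results known. Of 14 other S100 genes listed, 1 was measured. S100a6, another S100 gene often listed among those of effector T cells, had log10 ratios of -0.0602 (+ polarity array) and 0.0437 (- polarity array), so it had no common sign. Its mean of -0.0083 contrasts with S100a10 and S100a11, which were positive on both arrays. All 8 other annexin genes listed were measured, and none was called. Of their means, 3 were above 0 and 5 below. Their median was -0.0771, against 0.180 for the 4 member annexins. Both groups were chosen with earlier ratios known, so nothing is read from that difference. Anxa11, singled out after its value was seen, was positive on both arrays at 0.169 ± 0.0062 (1.47-fold), above the member genes Anxa5 and Anxa6 on average. Anxa3 was at -0.226 ± 0.078, on the side opposite to the members, and Anxa7 was positive on the + polarity array (0.131) but negative on the other (-0.794). Of 4 measured genes on the list of other galectins, none was called. The list includes Lgals3bp, whose product binds galectin-3 and is no galectin itself. Lgals3, which encodes galectin-3, a lectin of macrophages and activated cells, was on the members' side at 0.200 ± 0.084 (1.58-fold), and Lgals12 had opposite signs on the arrays.

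Genes whose proteins work with the members gave mixed ratios. Of 8 measured partners of annexins and S100 proteins, 1 was called positive and 1 negative, with a median of -0.0790. The positive one was Ahnak, a giant scaffold protein that binds the complex of annexin A2 and S100A10, at 0.316 ± 0.079 (2.07-fold), close to S100a10 itself. The negative one was Fpr2, a formyl peptide receptor for annexin A1 that is known mainly from myeloid cells, at -0.490 ± 0.044 (3.09-fold), opposite in sign to Anxa1. Among the partners not called, Plaur was negative on both arrays at -0.178 ± 0.061. Plau, with a mean of -0.236, had opposite signs on them. Over the list, 4 means were above 0 and 4 below. Of 7 measured surface glycoproteins that bind galectin-1, 1 was called positive: Itgb1, the integrin beta 1 chain, at 0.522 ± 0.016 (3.33-fold), larger than Lgals1. Spn, which encodes CD43, was at 0.266 ± 0.015 and Cd2 at 0.205 ± 0.0086, both positive on both arrays and not called, while Ptprc, which encodes CD45 and was singled out after its value was seen, was at -0.0082 ± 0.021. Of 4 measured genes of intermediate filaments and their linkers, 1 was called, on the same side as Vim, the nuclear lamin gene Lmnb1 at 0.354 ± 0.088. The keratin gene Krt18 was at 0.250 ± 0.14 and Krt19 at -0.0498 ± 0.0019.

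Effector and memory T cell genes beyond the members lay partly on their side. Among the 23 with a probe, 8 were called positive and 0 negative, where 3.72% of all genes were called positive. The list was written with earlier results known, so nothing is read from that share. Of the means, 17 were above 0 and 6 below, with a median of 0.121. This list shares Ahnak, Itgb1 and S100a6 with the lists above. The largest were Klrg1, an inhibitory receptor of effector lymphocytes, and the granzyme gene Gzmb, at 1.09 and 0.854, both well above Lgals1. Ccl5 was at 0.391 ± 0.021, and Id2 at 0.275 ± 0.0073 and Itga4 at 0.244 ± 0.051 were not called. Further genes of the list, singled out after their values were seen, were flat or on the other side. Cd44 was at 0.0570, Cxcr3 at -0.0869, Cx3cr1 at -0.121 and Emp1 at -0.141. Tbx21 had a mean of -0.0835 with opposite signs on the arrays. The list of naive T cell genes had 8 with a probe. Each averaged less than 0 over the arrays, and -0.249 was the middle of these averages. Negative calls went to 4 of them, where 5.03% of all genes were called negative. This list too was written with earlier results known, so nothing is read from that share. The called genes were Ly6c1 at -0.908 ± 0.016, Ccr7 at -0.478 ± 0.23, Ccr9 at -0.434 ± 0.46 and Id3 at -0.390 ± 0.037. Ccr9 was short of 2-fold on the + polarity array (-0.106), so its call rested on the - polarity array (-0.761). Ly6c1 is counted as naive by its place on the list alone, and whether it marks naive cells was not tested. The list's median on the + polarity array alone was -0.0748.

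**Figure D4:**
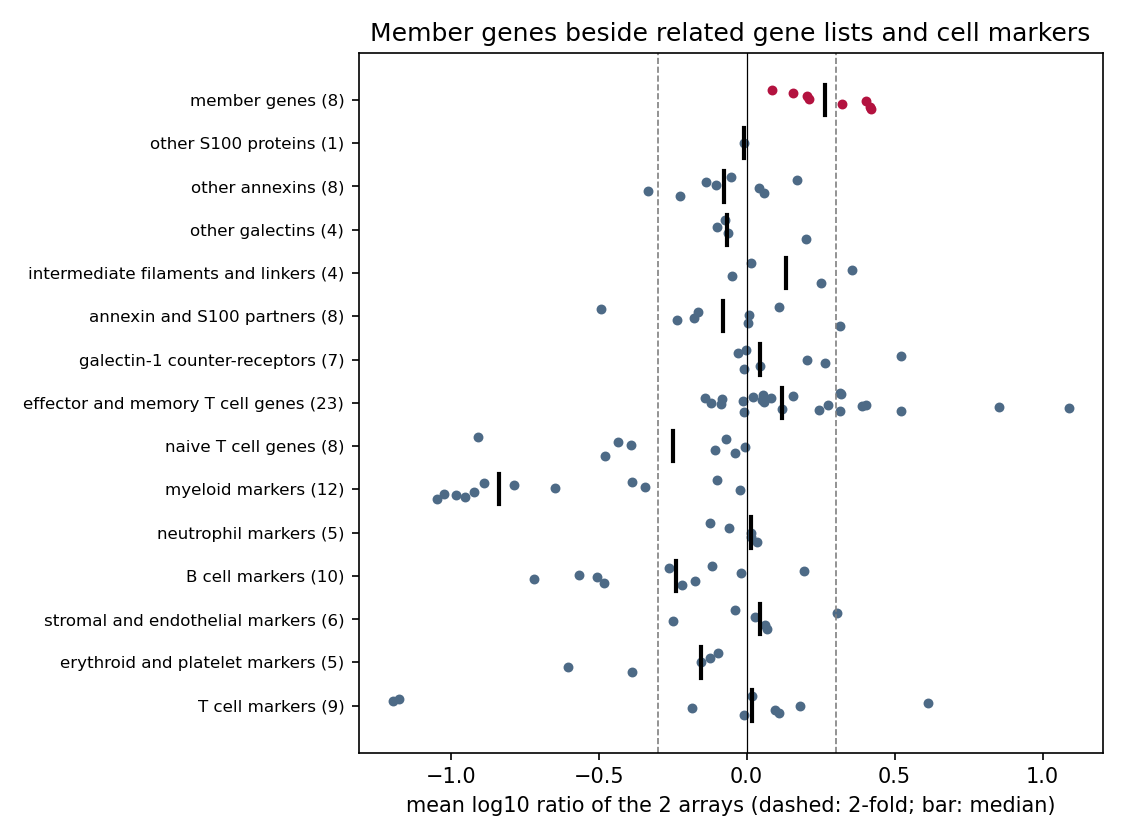
Mean log10 ratio over the 2 arrays for the 8 members (red, top row) and for the measured genes of 14 lists (blue, number measured in brackets); black bars are medians and dashed lines mark 2-fold. All 8 members lie right of 0, whereas the means of all 12 measured myeloid markers and all 8 naive T cell genes lie left of it. Of these, Itgam (-0.0221) and Il7r (-0.0063) are near 0, and Il7r, Igfbp4 and Clec4f had opposite signs on the arrays.

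Vim, Lgals1 and the annexins are also abundant in macrophages and stromal cells, so the markers of such cells are given beside them. Over all genes, 3.72% were called positive and 5.03% negative. The marker lists were written with earlier results known, so nothing is read from their counts. Of 12 measured myeloid markers, 0 were called positive and 10 negative. All 12 had a mean below 0, and the list ran from -1.05 to -0.0221, the side opposite to all 8 members. Of 10 measured B cell markers, 4 were called negative and 0 positive (-0.719 to 0.193), and of 5 erythroid and platelet markers 2 were negative and 0 positive (-0.604 to -0.0969). Of 6 stromal and endothelial markers, Cxcl13 was called positive at 0.305 ± 0.095 and 0 were negative (-0.250 to 0.305), and of 5 neutrophil markers 0 were called (-0.123 to 0.0351). Of 9 measured T cell markers, 1 was called positive and 2 negative, with a median of 0.0177 (-1.20 to 0.614). The positive one, Cd5, the molecule used to isolate the cells, was on the members' side at 0.614 ± 0.0077. The negative ones were Cd8b1 at -1.18 ± 0.082 and Cd8a at -1.20 ± 0.77. The arrays differed widely for Cd8a, at -0.654 (+ polarity array) and -1.74 (- polarity array). Lat was at 0.179 ± 0.010 and Cd247 at -0.185 ± 0.13, neither called, and Cd3d, Cd3e, Cd3g and Cd4, singled out after their values were seen, lay between -0.0074 and 0.110. Ratios give no summed level per population, so it could not be seen which markers were at 0, and the part of other cell types, of the isolation through CD5 and of the CD8 difference in the members' ratios was not tested.

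The genes most like Lgals1 were those with the smallest straight-line distance to it over the 2 array values. Outside the members these were Tpx2, Zbtb38, Tpi1, Bub1 and Grik5, at distances of 0.0118 to 0.0191 on the log10 scale. These distances are smaller than the gap of 0.0453 between the arrays for Lgals1 itself. For Anxa6 the nearest were Rassf5, Golph3 and Sin3b, at 0.0017 to 0.0028. With 2 arrays of 1 comparison such a likeness is a like size of ratio and nothing more.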

How the data were processed

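Gamma delta T cells sorted on CD5 from LAT3YF and wildtype spleens were compared by their total RNA on 2-colour arrays, per the labels. The populations exchanged channels between the 2 arrays. This is read as a dye reversal, and the labels do not name the dyes. The authors deposited 1 log ratio per probe and array, read here as log10; the base, the numerator, the scanner, the background correction and the normalization are stated neither in the labels nor in the table. The deposited log10 ratios had medians of -0.0028 (+ polarity array) and 0.0010 (- polarity array), so they were centred near 0. Before the sign was turned, the arrays had a Pearson correlation of -0.301 and a Spearman rank correlation of -0.154 across probes. Agreement over all probes was therefore weak. Intensities were not used here, and precision is limited by the number of arrays.

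The platform annotation gives 1 gene to 4654 of the 8014 probes, several genes to 73 and none to 3287. Gene identifiers of 4640 were found in the RefSeq table (GRCm38.p6), and 0 symbols changed. Probes of a gene were averaged, which gave 4331 genes. The - polarity array was multiplied by -1 and the arrays were averaged (Python 3.11.15, pandas 2.3.3, numpy 2.4.6), and the rule for calls was tested on simulated data. With the pair as 1 replicate, the conditions were not tested. The members and all 14 lists were chosen with earlier results of these data known. Genes named from a list were, per side, up to 4 called genes, ranked by the smaller of their array ratios, and up to 2 genes not called. The 5 genes nearest to Lgals1 and the 3 nearest to Anxa6 were also named. Promoter windows of 5 of the 8 members were found in the RefSeq table by gene identifier. Alternatives were other thresholds, log bases, centring, scaling, probe summaries and single arrays.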

Additional observations from a re-analysis of the deposited data

How the results depend on the processing

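The 4 positive calls among the members (0 negative) were kept, by the same genes, with centred arrays, with the median or the largest probe of a gene, and on the - polarity array alone; 0 members were called negative under any alternative. S100a10 lost its call with the - polarity array scaled after centring, with each array required to pass 2-fold and on the + polarity array alone, which left 3 members. At 3-fold, with values read as log2 and with values read as natural logs, 0 members were called positive. Over all genes, 161 positive and 218 negative calls became 365 and 409 at 1.5-fold, 48 and 96 at 3-fold, 10 and 7 as log2, and 22 and 40 as natural logs, because the threshold itself changed. On single arrays, 3 to 4 members were called positive and 0 negative, and all genes gave 228 to 306 positive and 224 to 436 negative calls. Scaling lowered the ratios of all members: Lgals1 to 0.377, Vim to 0.380, S100a11 to 0.367, S100a10 to 0.289, Anxa1 to 0.186, Anxa2 to 0.186, Anxa5 to 0.135 and Anxa6 to 0.0792. The larger probe of Anxa2 gave 0.254. On single arrays the ratios ran from 0.397 to 0.442 for Lgals1, 0.376 to 0.455 for Vim, 0.297 to 0.346 for S100a10, 0.382 to 0.425 for S100a11, 0.157 to 0.262 for Anxa1, 0.203 to 0.206 for Anxa2, 0.0862 to 0.225 for Anxa5 and 0.0730 to 0.0963 for Anxa6. No paired analysis was possible because the arrays are 1 group and no test was made. Without intensities, signal over background could not be used to limit any value.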
